A study of Mus musculus with 8 samples.

Results

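H19 and Igf2 are neighbouring genes on mouse chromosome 7 that are expressed from opposite parental alleles. They are described here in mouse embryonic stem (ES) cells sequenced at day 1 of in vitro differentiation. The pair makes up 2 of the 48440 genes counted in 8 RNA sequencing libraries. Both genes were chosen from their measured levels in these same libraries, together with the ratio of one to the other. Their levels, fold changes and ratios are therefore given as a description, with standard errors and without a test.

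All cells were MK6 ES cells, a line made from C57BL/6J mice, or were derived from them by editing. Each of 4 genotypes of Tbxt, the gene of the T-box transcription factor brachyury, was sequenced in 2 libraries. Wild-type cells carried no edit of Tbxt. Tbxt delE6/delE6 cells lacked exon 6 of Tbxt on both alleles, and Tbxt delE6/+ cells lacked it on 1 allele. Tbxt Insert ASAY cells carried an inserted AluSx1 and AluY pair from the human gene, on both alleles per the series design. Differentiation began in feeder-free cultures, which were moved from a medium that holds cells undifferentiated to N2/B27 medium and then exposed to CHIR99021, an activator of Wnt signalling. The exon 6 deletions had been made in feeder-free cells, whereas the insertion had been made in cells grown on a feeder layer, and its lines had passed through a further round of cloning after removal of a selection marker. The 2 Tbxt delE6/delE6 libraries came from different clones. Whether the replicates of the other genotypes came from 1 clone or more is not given in the sources used here, so for these a difference between genotypes cannot be told apart from one between clones.

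Genomic imprinting silences 1 parental copy of a gene. H19 gives a long non-coding RNA from the maternal chromosome, which is also the precursor of the microRNA miR-675. Igf2 gives insulin-like growth factor 2, a fetal growth factor, from the paternal chromosome. Both genes use the same enhancers beyond H19. On the maternal chromosome the protein CTCF binds an unmethylated control region between them and insulates Igf2 from these enhancers, and on the paternal chromosome DNA methylation of that region prevents CTCF binding and silences H19. The libraries count RNA from both chromosomes together, so the allele of origin of a read was not measured here.

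In the GENCODE M21 annotation of GRCm38, H19 lies at chr7:142575529-142578143 and Igf2 at chr7:142650766-142666816, both on the minus strand and 72.6 kb apart. H19 has 7 annotated transcripts and Igf2 has 9. Transcript H19-202 has 5 exons, and its first, at chr7:142576829-142578143, holds the miR-675 hairpin and, on the plus strand, 2 short annotated RNAs of no known product, Gm27786 and Gm27483. An intron of Igf2 holds a second microRNA, miR-483. The sequences are shown because they decide which reads count as H19. The microRNAs are from RefSeq on GRCm38.p6 and the H19 stretches from the GENCODE transcript, all written 5′ to 3′ on the minus strand. In the hairpin the capitals mark the 2 mature arms, and in the mature microRNAs they mark the seed, bases 2 to 8, which pairs with targets.
miR-675 hairpin, chr7:142577064-142577147: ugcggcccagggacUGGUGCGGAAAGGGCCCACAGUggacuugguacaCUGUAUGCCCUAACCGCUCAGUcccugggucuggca
mmu-miR-675-5p, chr7:142577112-142577133: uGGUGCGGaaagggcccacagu
mmu-miR-675-3p, chr7:142577078-142577099: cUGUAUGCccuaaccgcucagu
mmu-miR-483-5p, chr7:142654968-142654989: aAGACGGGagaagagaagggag
mmu-miR-483-3p, chr7:142654932-142654952: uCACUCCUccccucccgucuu
H19 under Gm27786, chr7:142577849-142577918: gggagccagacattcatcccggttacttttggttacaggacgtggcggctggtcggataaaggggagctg
H19 under Gm27483, chr7:142576853-142576923: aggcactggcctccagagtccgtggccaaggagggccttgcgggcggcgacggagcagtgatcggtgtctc

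The 4 seeds differ from each other. The hairpin occupies bases 997 to 1080 of H19-202, the stretch under Gm27786 bases 226 to 295 and the stretch under Gm27483 bases 1221 to 1291. No read was counted on Mir675 or Mir483 in any library. For Mir675 this follows from the counting: a fragment that overlaps H19 and Mir675 on the same strand belongs to 2 genes and was set aside as ambiguous, so it was counted for neither. The poly(A) libraries were also not made to hold mature microRNAs. The counts of H19 therefore describe its long transcript outside the hairpin.

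Between 24618587 and 28445952 reads per library fell on genes. Counts of reads in the sense orientation of the library kit were used, and those in the other orientation made up 4.11% to 4.78% of the sum. T, the symbol of Tbxt in the annotation, was low in all libraries, at 47 and 42 reads in wild-type, 26 and 22 in Tbxt delE6/delE6, 39 and 54 in Tbxt delE6/+ and 30 and 29 in Tbxt Insert ASAY. Counts per gene include both exon 6 isoforms, so they do not check the edits. All 12 ES cell markers were detected in every library, with a summed level of 1147 to 1753 CPM, counts scaled to a common library size.

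H19 was higher than in wild-type in all 6 mutant libraries. H19 was counted by 1014 and 1116 reads in wild-type, which is 36.6 and 41.5 CPM on library sizes scaled by the trimmed mean of M-values (TMM). The Tbxt delE6/delE6 libraries held 2928 and 5274 H19 reads, or 119 and 193 CPM. The Tbxt delE6/+ libraries held 2806 and 2803 reads, or 106 and 115 CPM. The lowest of these mutant values lay well above the highest wild-type value, and the 2 Tbxt delE6/delE6 clones stood 1.63-fold apart from each other. The Tbxt Insert ASAY libraries held 2840 and 2160 reads, or 103 and 79.0 CPM. H19 was chosen from these values, and how many of all genes separate the same libraries was not counted.

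The mean level of H19 was 39.1 ± 3.49 CPM in wild-type, 156 ± 52.9 in Tbxt delE6/delE6, 110.4 ± 5.89 in Tbxt delE6/+ and 91.3 ± 17.3 in Tbxt Insert ASAY (SD, n = 2 each). The fitted log2 fold change against wild-type was 2.00 ± 0.182 (SE) in Tbxt delE6/delE6, a 4.0-fold difference. It was 1.50 ± 0.183 in Tbxt delE6/+, or 2.83-fold, and 1.22 ± 0.184 in Tbxt Insert ASAY, or 2.34-fold. These differences exceed the spread between replicates of each genotype. The 3 comparisons share the same 2 wild-type libraries, so they are not independent of each other.

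Among the mutants the order of H19 was Tbxt delE6/delE6, then Tbxt delE6/+, then Tbxt Insert ASAY, and neighbours in that order were close. Tbxt Insert ASAY differed from Tbxt delE6/+ by a log2 fold change of -0.27 ± 0.172, a difference near the spread between replicates, which was -0.48 and -0.094 without replicate 1 and replicate 2 of Tbxt Insert ASAY. Tbxt delE6/+ differed from Tbxt delE6/delE6 by -0.50 ± 0.169. That value rests on replicate 2 of Tbxt delE6/delE6, and without it the difference was -0.11. Tbxt Insert ASAY stood -0.78 ± 0.170 from Tbxt delE6/delE6, or -0.38 without that library.

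Igf2 did not follow H19. It was lower than wild-type in Tbxt delE6/delE6, overlapped wild-type in Tbxt delE6/+ and was higher in Tbxt Insert ASAY. Wild-type libraries held 1417 and 1591 Igf2 reads, or 51.1 and 59.2 CPM. Tbxt delE6/delE6 libraries held 714 and 793 reads, or 28.9 and 29.1 CPM. The 2 clones that differed most in H19 were thus nearly alike in Igf2. Tbxt delE6/+ libraries held 1414 and 1152 reads, or 53.5 and 47.1 CPM, and the first of them lay between the 2 wild-type libraries. Tbxt Insert ASAY libraries held 1873 and 1995 reads, or 68.2 and 73.0 CPM, both above every other library.

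**Figure D1:**
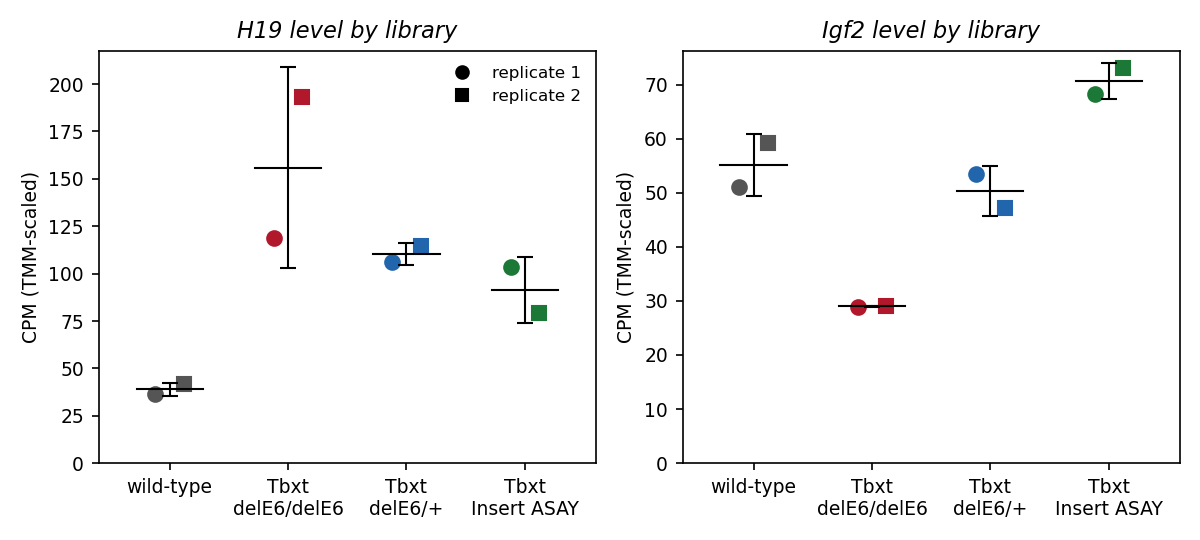
Level of H19 (left) and Igf2 (right) in each library, in CPM on TMM-scaled library sizes. Circles are replicate 1 and squares replicate 2 of each genotype, horizontal lines are means and bars are SD (n = 2). All 6 mutant libraries lie above wild-type in H19, at 79.0 CPM or more, while Igf2 is near 29 CPM in both Tbxt delE6/delE6 libraries and highest in Tbxt Insert ASAY.

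The mean level of Igf2 was 55.2 ± 5.70 CPM in wild-type, 29.0 ± 0.124 in Tbxt delE6/delE6, 50.3 ± 4.56 in Tbxt delE6/+ and 70.6 ± 3.36 in Tbxt Insert ASAY (SD, n = 2 each). The log2 fold change of Igf2 against wild-type was -0.93 ± 0.0839 (SE) in Tbxt delE6/delE6, which is 0.526 of the wild-type level. In Tbxt delE6/+ it was -0.13 ± 0.0803, within the spread between replicates. In Tbxt Insert ASAY it was 0.36 ± 0.0786, or 1.28-fold. Between mutants, Igf2 was higher by 0.80 ± 0.0846 in Tbxt delE6/+ than in Tbxt delE6/delE6 and higher by 0.49 ± 0.0794 in Tbxt Insert ASAY than in Tbxt delE6/+. The widest difference was between the 2 homozygous genotypes, where Tbxt Insert ASAY stood 1.28 ± 0.0831 above Tbxt delE6/delE6.

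The 2 genes can be set beside each other only per length of exon, 2460 bases for H19 and 5723 for Igf2. Divided by these lengths in kb, CPM become RPKM. On that scale H19 stood at 15.9 ± 1.42 and Igf2 at 9.64 ± 0.997 in wild-type (SD, n = 2). In Tbxt delE6/delE6 the same levels were 63.4 ± 21.5 for H19 and 5.07 ± 0.0216 for Igf2. On this scale H19 was therefore the higher of the pair in both genotypes. In wild-type this order rests on the lengths, which take the exons of all annotated transcripts together. In raw reads the wild-type ratio of H19 to Igf2 was 0.716 and 0.701. RPKM levels were 44.9 ± 2.39 and 8.79 ± 0.797 in Tbxt delE6/+, and 37.1 ± 7.03 and 12.3 ± 0.587 in Tbxt Insert ASAY. Among 16999 tested genes of known length, H19 ranked above 78.4% and 80.6% of genes in the wild-type libraries and above 90.4% to 96.6% in the mutant libraries. Igf2 ranked above 67.9% and 71.2% in wild-type, 55.1% in both Tbxt delE6/delE6 libraries, 69.2% and 66.4% in Tbxt delE6/+ and 74.4% and 75.7% in Tbxt Insert ASAY.

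The ratio of H19 to Igf2, in which library scaling cancels, was lowest in the wild-type libraries and highest in the Tbxt delE6/delE6 libraries. Per kilobase of exon the ratio was 1.66 and 1.63 in wild-type and 9.54 and 15.5 in Tbxt delE6/delE6. It was 4.62 and 5.66 in Tbxt delE6/+ and 3.53 and 2.52 in Tbxt Insert ASAY. The 2 wild-type libraries were nearly identical and the mutants were more spread. On the log2 scale of raw reads, the ratio exceeded wild-type by 2.88 ± 0.349 (SE, n = 2 against 2) in Tbxt delE6/delE6, by 1.63 ± 0.148 in Tbxt delE6/+ and by 0.85 ± 0.243 in Tbxt Insert ASAY. The higher ratio of Tbxt delE6/delE6 thus combined more H19 with less Igf2, that of Tbxt delE6/+ came with Igf2 near the wild-type level, and in Tbxt Insert ASAY both genes were higher and H19 more so. Between mutants, the log2 ratio of Tbxt Insert ASAY stood -0.78 ± 0.284 from that of Tbxt delE6/+, and that of Tbxt delE6/+ stood -1.25 ± 0.379 from that of Tbxt delE6/delE6. In bulk RNA, a lower level from fewer expressing cells and one from less RNA per cell cannot be told apart.

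**Figure D2:**
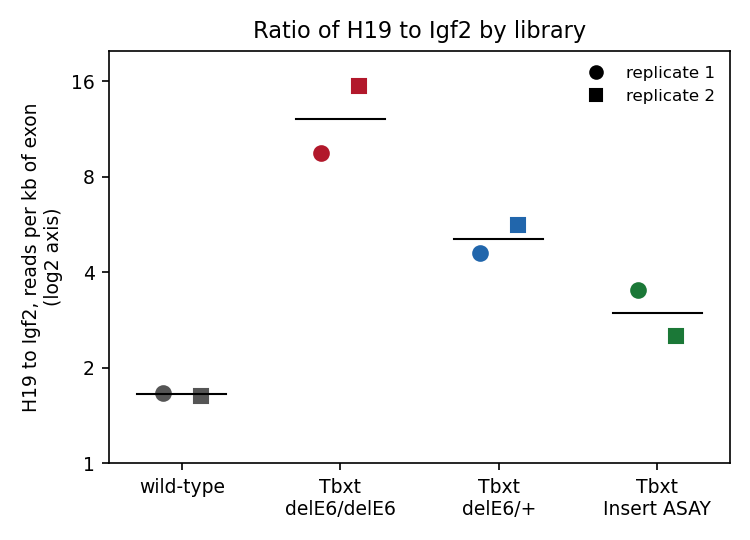
Ratio of H19 to Igf2 reads per kilobase of exon in each library, on a log2 axis. Circles are replicate 1, squares replicate 2 and lines the mean on the log scale (n = 2). Values run from 1.63 in wild-type to 15.5 in Tbxt delE6/delE6.

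The counts of H19 depended on strand. When reads were counted without strand, 64.2% to 72.3% of the H19 reads remained in each library, because reads over the 2 stretches printed above then also belonged to a plus-strand gene. The counts in the other orientation list reads of the H19 strand under the names of Gm27786 and Gm27483. Reads under Gm27786 made up 15.3% to 17.4% of the H19 count per library, and reads under Gm27483 13.9% to 19.5%. The first of these shares averaged 16.3% in wild-type, 16.4% in Tbxt delE6/delE6, 15.4% in Tbxt delE6/+ and 16.3% in Tbxt Insert ASAY. The second averaged 17.3%, 15.2%, 14.4% and 16.3% in the same order. The highest share under Gm27483 was 19.5% in wild-type replicate 1 and the lowest 13.9% in Tbxt delE6/+ replicate 2. Their 95% exact binomial intervals, 17.1% to 22.1% and 12.6% to 15.2%, cover counting error only. As these 2 libraries were picked as the extremes, their intervals do not compare the genotypes. The other wild-type library was at 15.1% (13.1% to 17.4%). Antisense reads were few, at 0.355% to 1.08% of the reads on either strand of H19 and 0.141% to 1.37% for Igf2.

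Calls among the genes around the pair, where there were any, went in both directions. Within 500 kb of the pair, 59 other genes are annotated and 58 of them were listed in the files. Of these, 29 had no read in any library and 16 passed the filter on low counts. A gene was called when its adjusted p was under 0.05 in edgeR's quasi-likelihood test with Benjamini-Hochberg adjustment over all 17049 tested genes and its log2 fold change was past 0.5 in size. In Tbxt delE6/delE6 this was met by 12.7% of all tested genes, 6.12% higher and 6.59% lower, and by 3 of the 16 neighbours. Without replicate 1 of that genotype 8 neighbours were called and without replicate 2 only 2, as the calls among all genes went from 2167 to 3388 and 1149. In Tbxt delE6/+ it was met by 13.5% of all genes, 6.6% higher and 6.89% lower, and by 0 of the 16 neighbours with edgeR and with DESeq2, although 3 of them had an unadjusted p under 0.05 with each tool. In Tbxt Insert ASAY it was met by 21.3% of all genes, 11.5% higher and 9.85% lower, and by 4 of the 16 neighbours. An unadjusted p under 0.05 was found for 12 of the 16 in Tbxt delE6/delE6 and 7 in Tbxt Insert ASAY with edgeR, and for 9 and 7 with DESeq2. The median log2 fold change of the 16 was -0.38 in Tbxt delE6/delE6, -0.23 in Tbxt delE6/+ and 0.08 in Tbxt Insert ASAY. For all tested genes it was -0.0096, -0.00059 and -0.0051. Whether the neighbours shifted together was not tested.

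The closest called neighbour of Igf2 was Igf2os, a transcript antisense to it that shares 98 exon bases with it on the other strand. Igf2os was counted by 21 and 21 reads in wild-type, 18 and 17 in Tbxt delE6/delE6, 16 and 13 in Tbxt delE6/+ and 64 and 60 in Tbxt Insert ASAY. A call was made only in Tbxt Insert ASAY, with a log2 fold change of 1.55 ± 0.235 (adjusted p = 0.000176, edgeR), the genotype in which Igf2 was also highest. The other mutant libraries all lay below wild-type, by few reads. Ins2, the insulin gene next to Igf2, and Nctc1, a non-coding transcript near the shared enhancers, had no read in any library. Mrpl23, a mitochondrial ribosomal protein gene on the far side of H19, was not called in any comparison, with log2 fold changes of -0.27, 0.03 and -0.38 in Tbxt delE6/delE6, Tbxt delE6/+ and Tbxt Insert ASAY.

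Further out, Ascl2, an imprinted transcription factor gene expressed from the maternal allele, fell in Tbxt delE6/delE6, from 79 and 62 reads in wild-type to 28 and 33 (log2 fold change -1.13 ± 0.228, adjusted p = 0.00236, edgeR). Kcnq1, a potassium channel gene, was called lower in the same genotype, with 2 and 1 reads against 49 and 32 in wild-type (adjusted p = 0.000135, edgeR). The third called neighbour was Gm27483 itself, with 10 and 25 reads against 5 and 3 on the strand antisense to H19. These reads were 2.14% and 3.12% of those on either strand of its 71 bases in Tbxt delE6/delE6 and 2.46% and 1.74% in wild-type. Over all of H19, antisense reads were 1.08% and 1.03% in Tbxt delE6/delE6 and 0.783% and 0.8% in wild-type. Whole libraries had 4.11% to 4.78% in the other orientation, which includes reads such as those of H19 listed under Gm27786 and so is no rate of strand error. Whether this call is a change apart from that of H19 was not tested. In Tbxt Insert ASAY, Tssc4 rose by a log2 fold change of 0.73 ± 0.114 (adjusted p = 0.000225, edgeR), while Dusp8, a phosphatase gene, had a log2 fold change of -1.56 ± 0.126 (adjusted p = 2.72e-06, edgeR) and R74862 one of -0.59 ± 0.137 (adjusted p = 0.00332, edgeR). The single tested gene between H19 and Igf2, Gm33148, had 3 to 11 reads per library and was not called in any comparison.

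**Figure D3:**
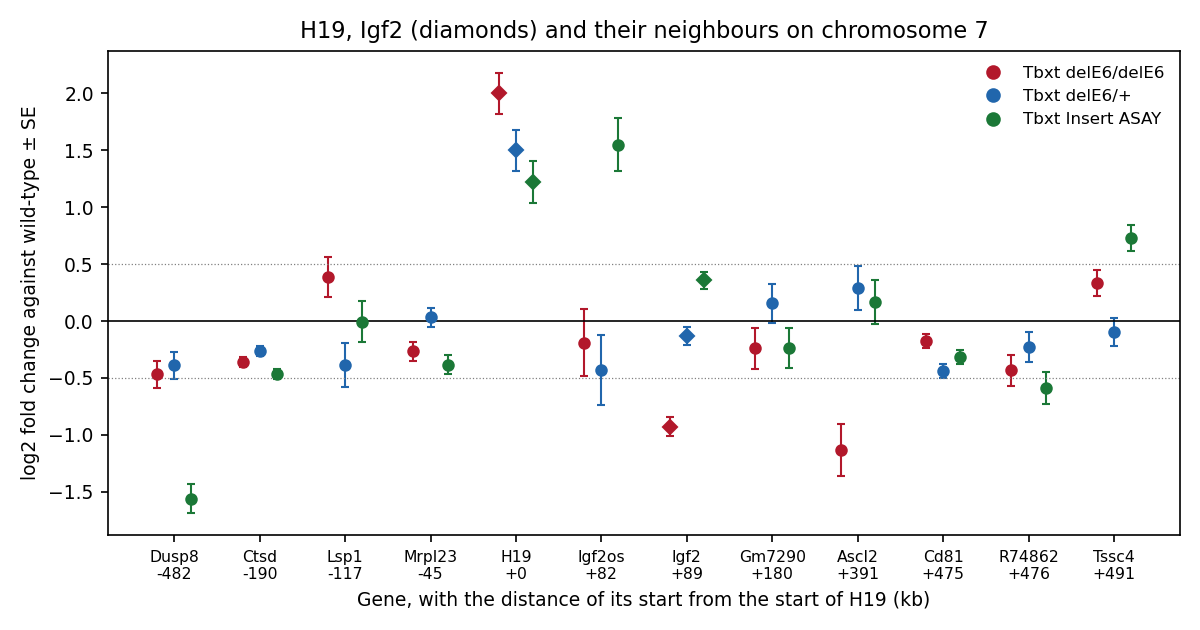
Log2 fold change against wild-type, with SE, of the 12 genes within 500 kb that had at least 10 reads in every library, H19 and Igf2 included. Genes are in order along the chromosome, with the distance of their start from that of H19 in kb, and diamonds mark the pair. H19 is the highest of them in Tbxt delE6/delE6 at 2.00, while Ctsd, Mrpl23, Gm7290 and Cd81 stay within 0.5 of wild-type in all 3 genotypes.

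Of the receptors of the Igf2 protein, Igf1r and Insr were called lower in both homozygous genotypes and Igf2r only in Tbxt delE6/delE6. Igf2r, the maternally expressed receptor that clears Igf2 from the cell surface, stood at 422 ± 12.3 CPM in wild-type and 210 ± 27.5 in Tbxt delE6/delE6 (SD, n = 2), and fell by 1.00 ± 0.0722 on the log2 scale (adjusted p = 5.47e-06, edgeR). Igf1r, the receptor that carries the growth signal, fell in Tbxt delE6/delE6 (log2 fold change -0.57 ± 0.0642, adjusted p = 7.82e-05, edgeR) and in Tbxt Insert ASAY (-0.82 ± 0.0647, adjusted p = 2.44e-06). Insr, the insulin receptor, also fell in both, by 0.63 and by 0.70 on the log2 scale (adjusted p = 0.000281 and 5e-05, edgeR). In Tbxt delE6/delE6 the calls of Igf1r and Insr fell short of 0.5 without replicate 2 of that genotype, at -0.49 and -0.47, and Igf1r also without wild-type replicate 2, at -0.49. In Tbxt Insert ASAY Igf2r had -0.44 ± 0.0711, short of the fold threshold. In Tbxt delE6/+ the log2 fold changes of Igf2r, Igf1r and Insr were -0.25, -0.14 and 0.12, none of them called.

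Of the 25 genes of the insulin-like growth factor axis, 18 were tested. In Tbxt delE6/delE6 1 was higher and 5 were lower, and in Tbxt Insert ASAY 1 was higher and 4 were lower. Tbxt delE6/+, where Igf2 itself was near wild-type, had 7 higher and 2 lower. The called shares were 33.3%, 27.8% and 50% in that order, against 12.7%, 21.3% and 13.5% of all genes. The medians of the 18 log2 fold changes were -0.02 in Tbxt delE6/delE6, 0.18 in Tbxt delE6/+ and -0.08 in Tbxt Insert ASAY, and the median of all tested genes was within 0.01 of 0 in each. The binding proteins Igfbp4 and Igfbp5, which hold the growth factors outside the cell, rose in Tbxt delE6/+ by 1.09 ± 0.0969 and 1.20 ± 0.0873 (adjusted p = 3.47e-06 and 6.3e-07, edgeR), as did the signalling substrate Irs1 and the binding-protein protease Pappa. Igfbp3 was lower in Tbxt delE6/+ (-0.92 ± 0.0861) and in Tbxt delE6/delE6 (-0.56 ± 0.0835). Stc2 and Irs4 were called in all 3 genotypes. Irs4, a further signalling substrate, was lower, higher and lower in Tbxt delE6/delE6, Tbxt delE6/+ and Tbxt Insert ASAY, at levels of 2.77 CPM or less. Stc2, an inhibitor of the protease, was higher in each, at 13.0 ± 0.702 CPM in wild-type against 26.2 ± 3.07, 19.5 ± 0.806 and 25.7 ± 0.774. Irs2 had a log2 fold change of -0.94 ± 0.0631 in Tbxt Insert ASAY (adjusted p = 1.2e-06, edgeR).

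Igf2bp1, Igf2bp2 and Igf2bp3 encode proteins that bind Igf2 mRNA and H19 RNA. They had log2 fold changes of 0.15, 0.29 and 0.44 in Tbxt delE6/delE6, and from 0.05 to 0.36 in the other genotypes. None was past 0.5 in size. The other ligands were hardly seen, with Ins1 and Ins2 at 0 reads and Igf1 at 2 reads or fewer per library.

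**Figure D4:**
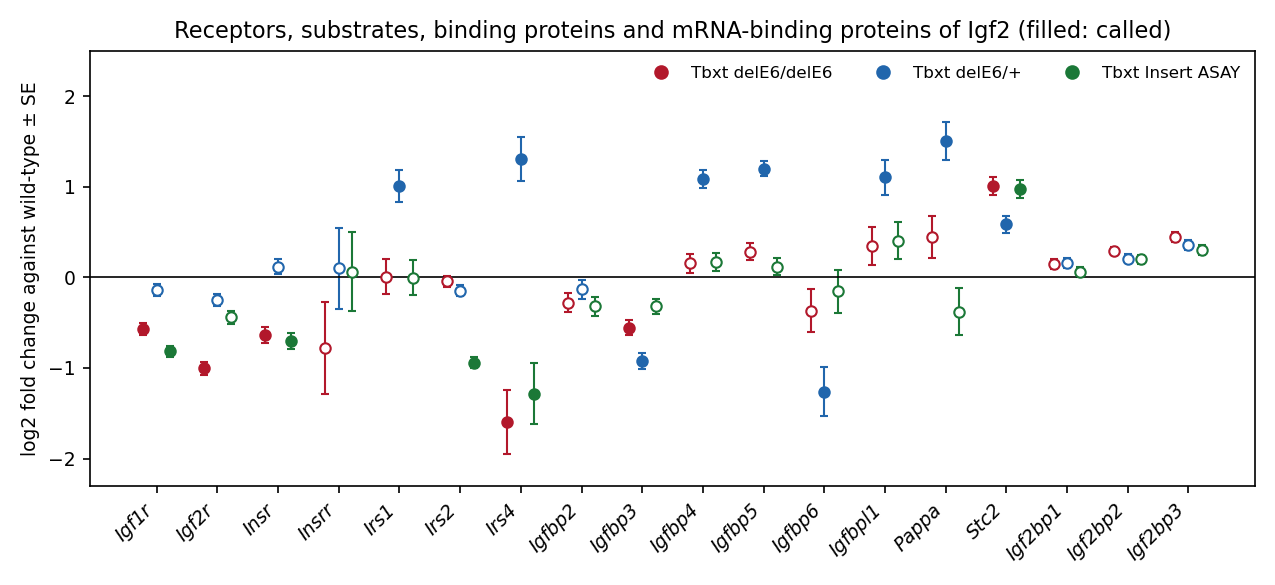
Log2 fold change against wild-type, with SE, of the 18 tested genes of the insulin-like growth factor axis. Filled points are called by edgeR and open points are not. Igf2r is called lower in Tbxt delE6/delE6, and Stc2 is called higher in all 3 genotypes.

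Of 24 tested factors that act at imprinting control regions, 1 was higher and 2 lower in Tbxt delE6/delE6, 3 higher and 3 lower in Tbxt delE6/+ and 1 higher and 4 lower in Tbxt Insert ASAY. These are 12.5%, 25% and 20.8% of the list, against 12.7%, 13.5% and 21.3% of all genes, so the counts in the homozygous genotypes are those of the background. The first count was 5 and 1 without replicate 1 and replicate 2 of Tbxt delE6/delE6. Ctcf, whose protein insulates Igf2 on the maternal chromosome, had log2 fold changes of 0.13, 0.25 and 0.25. Dnmt1 and Uhrf1, which copy DNA methylation through cell division, had 0.16, 0.31 and 0.20, and 0.12, 0.11 and 0.20. The methyltransferases Dnmt3a and Dnmt3b stayed between -0.09 and 0.22. None of these was past 0.5 in size, so none was called. The adjusted p was under 0.05 (edgeR) for Dnmt1 in all 3 genotypes and for Ctcf and Dnmt3b in Tbxt delE6/+ and Tbxt Insert ASAY. For Uhrf1 and Dnmt3a it was so in Tbxt Insert ASAY only. Zfp57, whose protein protects the methylated copy of imprinted control regions, fell in Tbxt delE6/+ (-0.62 ± 0.0999, adjusted p = 0.000421, edgeR) and Tbxt Insert ASAY (-0.57 ± 0.0992, adjusted p = 0.000488), with -0.26 in Tbxt delE6/delE6. Dnmt3l, a cofactor of the methyltransferases, fell in Tbxt delE6/+ (-0.75 ± 0.119, adjusted p = 0.000372, edgeR). Dppa3, which protects methylation in the early embryo, was lower in all 3 genotypes, by 1.14, 1.34 and 0.61 on the log2 scale (adjusted p = 0.000113, 1.17e-05 and 0.00196, edgeR). Dppa3 is also a known ES cell gene. The 3 factors called higher in Tbxt delE6/+ were Vezf1 (0.76 ± 0.0869, adjusted p = 2.76e-05, edgeR), the histone methyltransferase gene Setdb1 (0.51 ± 0.0515, adjusted p = 1.03e-05) and Tet2 (0.71 ± 0.13, adjusted p = 0.00106). Tet2, which encodes an enzyme that oxidises methylated cytosine, was called lower in Tbxt delE6/delE6 and Tbxt Insert ASAY, at -0.75 and -0.70, and its relative Tet3 was called higher there, at 0.60 and 0.63. Ctcfl, a paralogue of Ctcf, was called lower in Tbxt Insert ASAY at a level under 1 CPM. DNA methylation was not measured in these libraries.

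Other imprinted genes were called in both directions. Of 55 tested imprinted genes other than the pair, 24 were called in Tbxt delE6/delE6, 9 in Tbxt delE6/+ and 17 in Tbxt Insert ASAY. These are 43.6%, 16.4% and 30.9%, against 12.7%, 13.5% and 21.3% of all genes, so the share in Tbxt delE6/+ is near the background. The last count was 11 without wild-type replicate 2 or with DESeq2, and 9 without replicate 1 of Tbxt Insert ASAY. Genes expressed from the maternal allele, as H19 is, numbered 29, of which 3 were higher and 7 lower in Tbxt delE6/delE6, 1 higher and 2 lower in Tbxt delE6/+ and 4 higher and 1 lower in Tbxt Insert ASAY. Genes expressed from the paternal allele, as Igf2 is, numbered 26, of which 14 were higher and 0 lower in Tbxt delE6/delE6, 5 higher and 1 lower in Tbxt delE6/+ and 9 higher and 3 lower in Tbxt Insert ASAY. Over all genes 6.12%, 6.6% and 11.5% were higher and 6.59%, 6.89% and 9.85% lower in these genotypes. The median log2 fold change of the paternally expressed genes was 0.58 in Tbxt delE6/delE6, against -0.93 for Igf2. That of the maternally expressed genes was -0.00324, against 2.00 for H19.

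In Tbxt delE6/delE6, where H19 was highest, 5 of 9 listed maternally expressed genes of the adjoining Kcnq1ot1 cluster were called lower: Cdkn1c, Phlda2, Slc22a18, Kcnq1 and Ascl2. The other 4, Tssc4, Nap1l4, Cd81 and Osbpl5, were not called there, at 0.34, 0.16, -0.18 and -0.14. Cdkn1c, a growth-limiting cyclin-dependent kinase inhibitor, stood at 77.0 ± 0.198 CPM in wild-type and 4.53 ± 1.95 in Tbxt delE6/delE6 (SD, n = 2), a log2 fold change of -4.10 ± 0.142 (adjusted p = 7.24e-09, edgeR). Phlda2, which limits placental growth, had -2.01 ± 0.0942 (adjusted p = 8.26e-08) and Slc22a18 -2.77 ± 0.22 (adjusted p = 8.14e-06, edgeR). Kcnq1ot1, the paternally expressed RNA that silences this cluster, had -0.11 ± 0.14 and was not called there, and in Tbxt Insert ASAY it had -0.54 ± 0.143 (adjusted p = 0.00793, edgeR), a call lost without wild-type replicate 1. In Tbxt delE6/+, where H19 was also higher, Cdkn1c had -0.11 and was not called, and in Tbxt Insert ASAY it had 0.19 and was not called. Of the 9 genes, Phlda2 and Osbpl5 were called lower in Tbxt delE6/+, both at -0.51 (adjusted p = 0.000585 and 0.000724, edgeR). These values lie just past the fold threshold. In Tbxt Insert ASAY only Tssc4 of the 9 was called, higher at 0.73. The non-coding RNAs Meg3, Rian and Mirg of another cluster rose in Tbxt delE6/delE6 by 1.23, 1.34 and 1.63 on the log2 scale, all called. Dlk1 and Dio3, paternally expressed genes of that cluster, had 0.04 and -0.70 there and were not called. Rian and Mirg were also called higher in Tbxt Insert ASAY, at 0.54 and 0.98, where Meg3 had 0.42 and was not called. Meg3 was called higher in Tbxt delE6/+, at 0.53, where Rian and Mirg had 0.05 and 0.31 and were not called. In Tbxt delE6/+ Dio3, at 1.09 CPM in wild-type, was called lower at -1.70 (adjusted p = 0.0102, edgeR). Grb10, an adaptor that limits insulin signalling, fell by 0.64 in Tbxt delE6/delE6 (adjusted p = 2.34e-05, edgeR). It had -0.17 in both Tbxt delE6/+ and Tbxt Insert ASAY and was not called there.

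Among paternally expressed genes, Mest was called higher in all 3 genotypes, at 129 ± 3.25 CPM in wild-type and 304 ± 1.45, 247 ± 12.5 and 191 ± 14.8 in Tbxt delE6/delE6, Tbxt delE6/+ and Tbxt Insert ASAY (SD, n = 2). In Tbxt Insert ASAY it lost the call without replicate 1 of that genotype, at 0.49. Peg3 was called higher in Tbxt delE6/delE6 and Tbxt delE6/+, by 0.75 and 0.71 on the log2 scale, and Plagl1, a zinc finger gene of the imprinted network, by 0.60 and 0.71. Zdbf2 rose by 1.37 ± 0.134 in Tbxt delE6/delE6 and by 1.71 ± 0.134 in Tbxt Insert ASAY (adjusted p = 3.99e-05 and 2.27e-06, edgeR). Peg12 was called higher in all 3 genotypes, by 1.16, 0.68 and 1.10. Dlk1 was lower in Tbxt Insert ASAY, at -0.79 ± 0.211 (adjusted p = 0.00801, edgeR), and lost the call when replicate 2 of wild-type or replicate 1 of Tbxt Insert ASAY was left out.

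**Figure D5:**
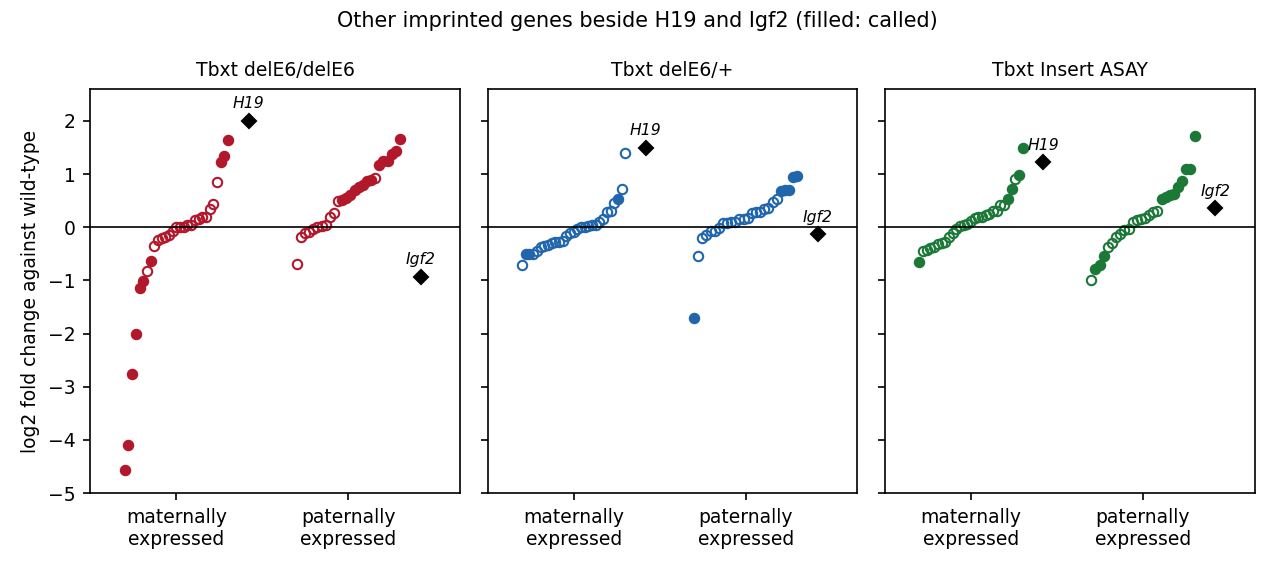
Log2 fold change against wild-type of tested imprinted genes other than the pair, 29 expressed from the maternal and 26 from the paternal allele, in each mutant genotype. Genes are sorted by value within each column, filled points are called by edgeR and black diamonds mark H19 and Igf2, which carry no test. H19 is at 2.00 in Tbxt delE6/delE6, where 7 maternally expressed genes are called lower.

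Genes whose pattern over the 8 libraries was most like that of H19 were sought among the 12836 genes averaging 2 CPM or more, by the root mean square difference of log2 CPM after centring each gene. For H19 these were Wnt6 at 0.303, Synpo2l at 0.305, St8sia2 at 0.341, Mest at 0.349 and Slc15a2 at 0.352, where H19's own root mean square deviation was 0.753. Wnt6, which encodes a secreted Wnt ligand, averaged 7.73 CPM in wild-type and 19.6, 14.0 and 15.0 in Tbxt delE6/delE6, Tbxt delE6/+ and Tbxt Insert ASAY. Igf2 was at place 12492 of this order, with a difference of 1.08. For Igf2, whose own deviation was 0.474, the genes most alike included Lrrc34 at 0.187, Slc52a3 at 0.232, Arg2 at 0.239 and C78283 at 0.240, and H19 was at place 12774. Patterns over 4 genotypes with 2 libraries each are short, and libraries of a genotype share their cells.

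H19 and Igf2 are also abundant in fibroblasts, extraembryonic endoderm and trophoblast, so markers of these cells were read beside them. The summed level of 14 fibroblast markers was 76.1 to 81.7 CPM in wild-type, 52.2 to 52.6 in Tbxt delE6/delE6, 79.0 to 80.4 in Tbxt delE6/+ and 39.3 to 40.0 in Tbxt Insert ASAY. Of these markers 8 were tested, and 4, 2 and 6 were called lower, with 0, 2 and 0 higher, where 12.7%, 13.5% and 21.3% of all genes were called in either direction. Each library had 1 to 3 of the 14 at 0 reads. The part of such cells in the levels of H19 and Igf2 was not tested. The summed level of 16 extraembryonic endoderm markers was 609 to 663 CPM in wild-type and 568 to 641 in the mutants, with Sparc giving most of it. In wild-type Gata4 averaged 9.30 CPM, Amn 5.17, Dab2 3.52 and Gata6 1.41. Ttr had 0 reads, and 7 of the 16 were under 1 CPM in each wild-type library. Of the 16 markers 13 were tested, with 0, 3 and 1 called higher and 3, 0 and 1 lower in Tbxt delE6/delE6, Tbxt delE6/+ and Tbxt Insert ASAY. The 3 higher in Tbxt delE6/+ were Dab2 at 1.00, Foxa2 at 1.47 and Lama1 at 0.76 on the log2 scale. For 11 trophoblast markers the sum was 48.4 to 51.6 CPM in wild-type and 37.2 to 47.4 in the mutants, with Tpbpa and Prl3d1 at 0 reads. The highest in the wild-type libraries were Tfap2c at 14.3 CPM in replicate 1 and Eomes at 14.8 in replicate 2. Of the 8 trophoblast markers tested, 1 was called higher in each genotype and 3, 2 and 3 lower. The one higher in Tbxt delE6/+ and Tbxt Insert ASAY was Cdx2, at 3.06 and 1.78, from 0.222 CPM in wild-type. Cdx2 and Eomes are also on the list of streak and mesoderm markers, so Cdx2 does not point to trophoblast alone.

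The ES cell markers summed to 1700 to 1753 CPM in wild-type, 1147 to 1317 in Tbxt delE6/delE6, 1357 to 1416 in Tbxt delE6/+ and 1347 to 1401 in Tbxt Insert ASAY. Of the 12 markers, 6, 7 and 4 were called lower and 0, 2 and 0 higher, where 6.59%, 6.89% and 9.85% of all genes were called lower. Much of the fall in this sum came from Dppa5a, at 544 CPM in wild-type and 200, 182 and 270 in Tbxt delE6/delE6, Tbxt delE6/+ and Tbxt Insert ASAY. The 2 markers called higher in Tbxt delE6/+ were Sox2 and Lin28a, at 0.72 and 0.81 on the log2 scale. H19 was higher in the genotypes in which the sum was lower, and the part of the ES cell programme in the level of H19 was not tested. The 13 streak and mesoderm markers summed to 30.7 to 33.2 CPM in wild-type, 36.7 to 37.6 in Tbxt delE6/delE6, 26.6 to 28.2 in Tbxt delE6/+ and 36.5 to 39.8 in Tbxt Insert ASAY. This sum did not order the genotypes as either gene did. Of the 13 markers 8 were tested, with 1, 2 and 3 called higher and 1, 2 and 1 lower in Tbxt delE6/delE6, Tbxt delE6/+ and Tbxt Insert ASAY. Over all genes 12.7%, 13.5% and 21.3% were called in either direction.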

How the data were processed

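Poly(A) RNA was sequenced from 8 libraries, 2 for each of 4 genotypes, grouped by their labels. The authors mapped reads to mm10 with STAR 2.7.2a and deposited raw counts per gene, as whole numbers without normalization, in 3 columns by strand. The column that this directional kit assigns to the transcript's own strand was used, and STAR's 4 summary lines, present in 7 files, were left out. The annotation release behind the counts is not given in the sources used here. Of 48440 gene IDs, 48058 matched GENCODE M21, which gave symbols, coordinates and exon lengths. The share of ambiguous reads is known only where the summary lines are present.

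Genes were filtered with filterByExpr (minimum count 10, minimum total 15), scaled by TMM and fitted with the quasi-likelihood method of edgeR 4.0.16 in R 4.3.3. The 8 libraries entered 1 fit, in which every genotype had its own coefficient. P-values were adjusted by Benjamini-Hochberg over 17049 genes, and a call required less than 0.05 after adjustment together with a log2 fold change whose size exceeded 0.5. CPM used TMM-scaled library sizes. The log2 ratio was computed from raw counts, with an SE from the SD of the replicates. The steps were tested on simulated counts. Alternatives were DESeq2 1.42.0, a fit with its size factors, unstranded counts, no low-count filter, a stricter one of 10 or more reads per library throughout, a fit of the 2 compared genotypes alone, a replicate block and leaving out each library.

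The members, lists and tests were chosen with earlier results of these data known. Named were H19 and Igf2, called neighbours, a fixed set of receptors, control region factors and imprinted genes whatever their values, and up to 4 called members per direction and list with the smallest adjusted p and a mean of at least 2 CPM. Igf2os, Kcnq1, Gm27483, Mrpl23, Ctcfl, Nap1l4, Cd81, Osbpl5, Pappa, Peg12 and the ligands were named for their place or values after these were seen. So were Dio3, Foxa2, Cdx2 and other cell type markers. One gene among those most like Igf2 is not reported here. The study prepared its replicates as biological replicates but does not say whether most came from separate clones, so p-values measure only the spread between these libraries.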

Additional observations from a re-analysis of the deposited data

Results flagged for a closer look

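Igf2 lay above every wild-type library in Tbxt Insert ASAY, with a log2 fold change of 0.36, and below every wild-type library in Tbxt delE6/delE6, with -0.93. The 2 genotypes thus moved in opposite directions from the same controls, a difference that was not tested.

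In 4 neighbours too, every library of 1 genotype lay above and every library of another below wild-type, and none of these differences was tested. Igf2os was at 1.55 in Tbxt Insert ASAY against -0.19 in Tbxt delE6/delE6 and -0.43 in Tbxt delE6/+, of which only the first was called, and the last 2 values rest on 13 to 18 reads per library. Ascl2 was at 0.17 ± 0.193 in Tbxt Insert ASAY, not called, and at -1.13 in Tbxt delE6/delE6. Lsp1 was at 0.39 in Tbxt delE6/delE6 and -0.38 in Tbxt delE6/+, neither called. Th was at 0.86 in Tbxt Insert ASAY and -2.38 in Tbxt delE6/delE6, neither called, with 11 reads at most in any library.

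Reads of H19 also appeared in the column of counts for the other strand, under the names of 2 short plus-strand genes inside its first exon, and all mutant libraries exceeded wild-type there. Under Gm27786, wild-type held 174 and 172 reads, Tbxt delE6/delE6 479 and 869, Tbxt delE6/+ 436 and 428 and Tbxt Insert ASAY 493 and 330. Under Gm27483, wild-type held 198 and 169 reads, Tbxt delE6/delE6 457 and 777, Tbxt delE6/+ 417 and 389 and Tbxt Insert ASAY 452 and 359. In an analysis of that column these rows would be read as 2 further genes that rise in the mutants, although they lie on the strand of H19.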

How the results depend on the processing

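No alternative reversed a direction. All 84 values of H19 and Igf2 under settings that kept every library stayed within the spread between replicates, with H19 in Tbxt delE6/delE6 from 1.99 to 2.05 and Igf2 from -0.93 to -0.92. Counts of calls kept within 1.5 times except in 2 cases: 1 neighbour in place of 3 in Tbxt delE6/delE6 with at least 10 counts in every library, since Kcnq1 and Gm27483 fail that filter, and 11 imprinted genes in place of 17 in Tbxt Insert ASAY with DESeq2, for which the cause was not tested. Phlda2 in Tbxt delE6/+ lost its call at a log2 fold change of -0.50 with DESeq2 and with its size factors.

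Leaving out 1 library at a time gave log2 fold changes in Tbxt delE6/delE6 from 1.60 to 2.31 for H19, the lowest without its replicate 2, and from -1.03 to -0.82 for Igf2. Tbxt delE6/+ against Tbxt delE6/delE6 ranged from -0.81 to -0.11 for H19 and from 0.70 to 0.88 for Igf2, and Tbxt Insert ASAY against Tbxt delE6/delE6 from 1.23 to 1.33 for Igf2. Tbxt Insert ASAY against Tbxt delE6/+ ranged from -0.48 to -0.094 for H19, -0.48 without replicate 1 of Tbxt Insert ASAY. In Tbxt delE6/delE6, all genes called ranged from 1149 without its replicate 2 to 3388 without its replicate 1, control region factors from 1 to 5 at the same libraries, and neighbours from 2 to 8, with 8 without its replicate 1. Imprinted genes called in Tbxt Insert ASAY ranged from 9, without its replicate 1, to 18, with 11 without wild-type replicate 2. Kcnq1ot1 in Tbxt Insert ASAY lost its call without wild-type replicate 1, and Meg3 in Tbxt delE6/+ without its replicate 2.

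Replicate numbers did not pair the libraries: deviations of same-numbered libraries correlated between -0.100 and 0.0672 over 12837 genes. With a replicate block, H19 stood at 1.99, 1.50 and 1.24 and Igf2 at -0.93, -0.13 and 0.36 in Tbxt delE6/delE6, Tbxt delE6/+ and Tbxt Insert ASAY, and 2135, 2255 and 3610 genes were called in place of 2167, 2299 and 3639. With 2 libraries per genotype, differences near the spread between replicates are not resolved, and genes under about 20 reads per library, such as Igf2os outside Tbxt Insert ASAY, are limited by counting.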
